A study of Mus musculus with 9 samples.

Results

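ATP-binding cassette (ABC) transporters other than Abca1 and Abcg1 were examined in Hepa1-6, a mouse hepatoma cell line, exposed to either of 2 pleuromutilin antibiotics. Members were the protein-coding genes whose symbol is Abc followed by a subfamily letter from a to g and a number, 50 in the deposited table, and Abca1 and Abcg1 were then left out. This gave 48 of the 56748 genes in the table, 15 of subfamily A, 10 of B, 10 of C, 4 of D, 1 of E, 3 of F and 5 of G. The rule uses symbols and no measured value, but it was set, with Abca1 and Abcg1 left out, when earlier results of these data were known.

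ABC proteins bind and hydrolyze ATP, and most of them use that energy to move a substrate across a membrane. Full transporters carry both membrane domains and both ATP-binding domains in a single chain, whereas half-transporters, such as those of subfamilies D and G, work as pairs. In hepatocytes, members at the canalicular membrane secrete bile salts, phospholipid, sterols, drugs and conjugates into bile, members at the basolateral membrane return conjugates and bile acids to blood, and others serve mitochondria, peroxisomes and lysosomes. Subfamilies E and F have no membrane domain and act on ribosomes and translation.

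RNA-Seq was performed on 3 groups of 3 libraries each. Control cells received no drug according to the sample labels, whereas the methods of the study describe them as given vehicle. The lefamulin group received 37 µg/mL lefamulin and the tiamulin group 37 µg/mL tiamulin, in each case for 2 days, and the cells of all 3 groups carried no engineered allele and grew in serum-containing DMEM with penicillin and streptomycin. Lefamulin and tiamulin share the pleuromutilin core and differ in the side chain. The labels do not state that the libraries of a group came from separate cultures, so p values measure the spread between these libraries, which may be technical.

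Total counts on genes lay between 15568887 and 18008105 per library. Among the 12 hepatocyte and hepatoma markers listed, 5 (Ttr, Apoa1, Ahsg, Fga and Serpina1c) were at or below 1 FPKM in every library, FPKM being fragments per kilobase of gene and 1000000 reads. Afp and Alb stood between 145 and 302 FPKM, and the summed level of the 12 markers ranged from 724 to 793 in controls, 698 to 741 in lefamulin libraries and 557 to 603 in tiamulin libraries. Among 7 blood cell markers the sum ranged from 6.90 to 7.76, 8.71 to 13.8 and 11.7 to 16.8, mostly Cd68, with Adgre1 and Cd3e at 0 throughout and 5 of the 7 at or below 1 FPKM. Endothelial markers, mostly Pecam1, summed to 0.198 to 0.267 FPKM in controls, 0.402 to 0.628 in lefamulin libraries and 0.479 to 0.723 in tiamulin libraries. Fibroblast and stellate markers summed to at most 0.584, while 4 cholangiocyte markers, mostly Sox9, summed to between 29.6 and 41.0. The part of these shifts in the results below was not tested. In bulk RNA, fewer cells of a type and less RNA per cell cannot be told apart.

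The library tiamulin 2 stood apart from the others of its group. Its counts differed from those of tiamulin 1 and tiamulin 3 with a chi-square per degree of freedom of 18.2 and 20.7, against 2.88 to 7.61 for the other pairs within a group. Across 9584 genes, which are not independent replicates, Spearman's rho between a gene's GC content and its deviation from the mean level of its group was 0.710 in tiamulin 2, against -0.560 and -0.599 in tiamulin 1 and 3. Controls 1 and 2 also differed in this respect, at 0.523 and -0.512, whereas control 3 and the lefamulin libraries lay between -0.159 and 0.195. Results that rest on tiamulin 2 are therefore given with and without it.

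Upstream sequences are shown for 4 members that changed under both drugs (Abcc2, Abca8b), rose by the largest fold under tiamulin (Abcb11) or differed between the drugs (Abcc4). The RefSeq promoter table for build GRCm38.p6 held an entry for 37 of the 48 members, 44 entries in all, and for 9 of the 13 members that passed a test, Abca6, Abcc3, Abcd2 and Abcd4 having none. Each line gives the 250 bases before an annotated transcription start, 5′ to 3′ on the strand of the gene. Capitals mark matches, on either strand, to AGGTCA (a nuclear receptor half-site), TGACNNNGC (the core of the antioxidant response element), CACGTG (an E-box), CCAAT (known as the site of the factor NF-Y), GGGCGG (known as the site of Sp factors) or, last, TATAAA (known from core promoters). The Abcc2 window lies at chr19:43782058-43782307 on the plus strand and the others are on the minus strand, Abcc4 at chr14:118706220-118706469, Abcb11 at chr2:69342617-69342866 and Abca8b at chr11:109995846-109996095.
Abcc2: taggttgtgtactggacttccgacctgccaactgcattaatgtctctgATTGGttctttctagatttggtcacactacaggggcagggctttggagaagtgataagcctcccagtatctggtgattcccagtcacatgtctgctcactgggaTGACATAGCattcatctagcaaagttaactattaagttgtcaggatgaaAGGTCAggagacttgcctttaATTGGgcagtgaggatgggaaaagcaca
Abcc4: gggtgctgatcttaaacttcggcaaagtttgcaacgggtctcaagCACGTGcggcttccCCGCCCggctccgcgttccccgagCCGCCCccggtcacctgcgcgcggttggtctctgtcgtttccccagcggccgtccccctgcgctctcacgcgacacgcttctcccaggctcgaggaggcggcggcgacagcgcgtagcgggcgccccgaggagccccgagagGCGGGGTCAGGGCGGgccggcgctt
Abcb11: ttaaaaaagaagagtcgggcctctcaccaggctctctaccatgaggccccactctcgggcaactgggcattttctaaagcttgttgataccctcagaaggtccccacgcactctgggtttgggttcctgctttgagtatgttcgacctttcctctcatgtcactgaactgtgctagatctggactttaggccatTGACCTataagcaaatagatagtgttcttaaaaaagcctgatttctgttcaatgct
Abca8b: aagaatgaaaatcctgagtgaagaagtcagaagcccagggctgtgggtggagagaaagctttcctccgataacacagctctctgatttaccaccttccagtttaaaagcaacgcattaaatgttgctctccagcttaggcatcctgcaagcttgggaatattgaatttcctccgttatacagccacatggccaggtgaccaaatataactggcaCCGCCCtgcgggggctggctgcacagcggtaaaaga

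In the Abcc2 window the matches were AGGTCA once, TGACNNNGC once and, on the opposite strand, CCAAT. The Abcc4 window held CACGTG and, further on, GGGCGG on both strands and TGACNNNGC on the opposite strand, directly beside a GGGCGG match, the Abcb11 window held AGGTCA on the opposite strand, and the Abca8b window held GGGCGG on the opposite strand. AGGTCA was found in 14.02% of all 32851 promoter entries and in 7 of the 44 entries of members, and TGACNNNGC in 10.2% and in 4, those of Abcc2, both of Abcc4 and 1 of Abcc10. CACGTG stood in 6.02% of all entries and in 4 member entries, CCAAT in 33.8% and 13, GGGCGG in 32.7% and 19, and TATAAA in 12.4% and 4. A match states only that these letters are in the window.

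Levels of the members differed widely. In controls 12 members had a mean of at least 10 FPKM, 15 lay between 1 and 10, 8 between 0.1 and 1, and 13 below 0.1. Abcc2, the canalicular exporter of bilirubin glucuronides and glutathione conjugates, led with 74.6 ± 1.12 FPKM (SD, n = 3), followed by Abce1, a ribosome recycling ATPase, at 49.3 ± 3.01. Abcf1, which acts in translation initiation, stood at 39.2 ± 1.73 and its relative Abcf2 at 35.9 ± 2.00, and Abca5, a lysosomal member of subfamily A, at 25.4 ± 0.348. Next came the conjugate exporters Abcc4 at 21.1 ± 0.359, Abcc5 at 20.1 ± 0.122 and Abcc3 at 15.8 ± 0.394. Abca6 and Abcb1b, both at 13.8 FPKM, did not differ beyond their SDs of 0.752 and 0.520, and Abcb1a stood at 10.1 ± 0.808. Subfamilies D and G were led by Abcd3 at 6.89 ± 0.361 and Abcg2 at 3.06 ± 0.151.

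Several exporters of normal hepatocytes were close to absent. Abcb11, the bile salt export pump, stood at 0.0557 ± 0.0304 FPKM in controls and Abcb4, the canalicular phospholipid translocase, at 0.175 ± 0.0740. Abcg5 and Abcg8, which pair to export sterols into bile, had at most 2 counts in any library. No read was counted on Abcg3 in any of the 9 libraries, which allows up to 0.0199 counts per 1000000 reads (3 counts over all libraries, counting error only). Abcb5 had no count in the controls and under tiamulin and 1, 3 and 1 counts under lefamulin. The other members too low to be tested were Abca8a, Abca12, Abca13, Abca14, Abca15 and Abcc9, with at most 15 counts in a library, so 38 of the 48 members were tested.

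**Figure D1:**
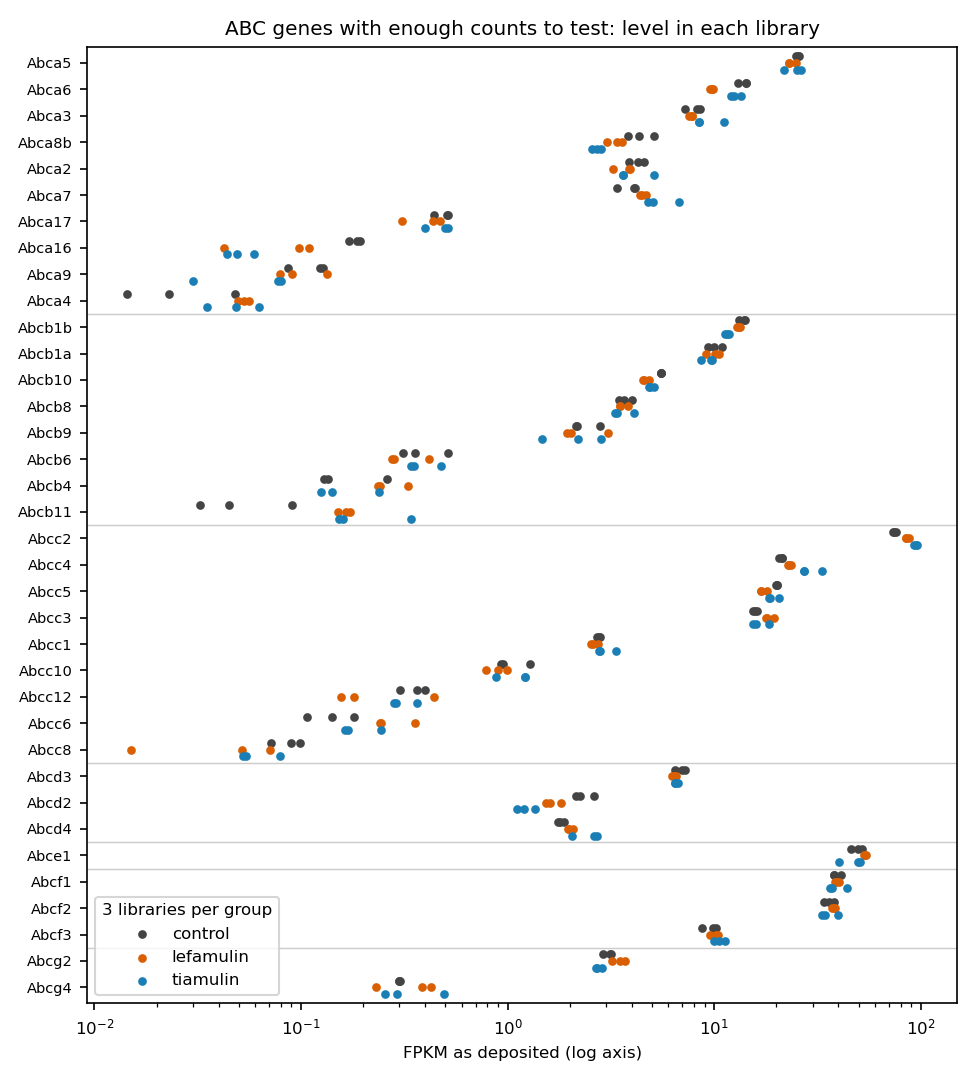
Deposited FPKM (log axis) of 36 of the 38 tested members in each of the 9 libraries, by subfamily A to G from top to bottom and by falling control level within it. Points are libraries, coloured by group. Abcc2 lies highest in every library, and Abca4, Abcc8, Abca9, Abca16 and, in controls, Abcb11 are among the lowest.

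Summed over the 48 members, the level was 394 ± 4.70 FPKM in controls, 403 ± 3.84 under lefamulin and 414 ± 9.07 under tiamulin (SD, n = 3). Subfamily C made up 34.5 ± 0.169% of the sum in controls, 37.0 ± 0.274% under lefamulin and 39.8 ± 0.438% under tiamulin. The shares of subfamily B were 11.8 ± 0.178%, 10.7 ± 0.237% and 9.88 ± 0.300%, and those of subfamily A 15.4 ± 0.361%, 13.3 ± 0.278% and 14.4 ± 0.274%. These shares are descriptions and were not tested.

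To compare each drug with the control, all 9 libraries entered an edgeR quasi-likelihood fit of 14510 genes, and p values were adjusted over all of them by the Benjamini-Hochberg method. Under lefamulin 6 of the 38 tested members (15.8%) had an adjusted p below 0.05, against 13.1% of all tested genes. Abcc2 and Abcc3 rose, 2 members against a background of 7.09%, and Abca6, Abca8b, Abcc5 and Abcd2 fell, 4 members against 6%. None of the 38 also had an absolute log2(fold change) above 1, the threshold of the study for a differentially expressed gene (DEG), which 1.51% of all genes passed, and 11 (28.9%) had an unadjusted p below 0.05, against 27.2% of all genes. The lefamulin and control libraries did not overlap for 18 members (47.4%), against 37.6% of all genes. The median log2(fold change) was -0.0433 over the 38 members and -0.00183 over all tested genes.

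Under tiamulin 9 of the 38 members (23.7%) passed, against 16.4% of all tested genes. Abca7, Abcb11, Abcc2, Abcc4 and Abcd4 rose, 5 members against a background of 9.08%, and Abca8b, Abca16, Abcb1b and Abcd2 fell, 4 members against 7.34%. Abcb11 and Abca16 also met the DEG threshold, 2 members against 1.78% of all genes, and both had few counts. For 13 members (34.2%) the tiamulin and control libraries did not overlap, against 32.3% of all genes, and 11 (28.9%) had an unadjusted p below 0.05, against 29.8%. The median log2(fold change) was -0.0499 over the members and 0.00337 over all genes. Abcc2, Abca8b and Abcd2 passed under both drugs, and the 2 comparisons share the control libraries.

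Call counts moved with the fit for lefamulin more than for tiamulin, and the share of all genes called moved as well. Without tiamulin 2 the calls were 11 of 39 members (28.2%) under lefamulin, against 24.9% of all genes, and 8 (20.5%) under tiamulin, against 23.1%. Under lefamulin they were 2 without control 3 or without lefamulin 3, against 6.69% and 7.62% of all genes, and 3 without lefamulin 2, against 6.71%. Offsets for GC content and gene length gave 13 members (34.2%) under lefamulin, against 23.9% of all genes, and 11 (28.9%) under tiamulin, against 27.4%.

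**Figure D2:**
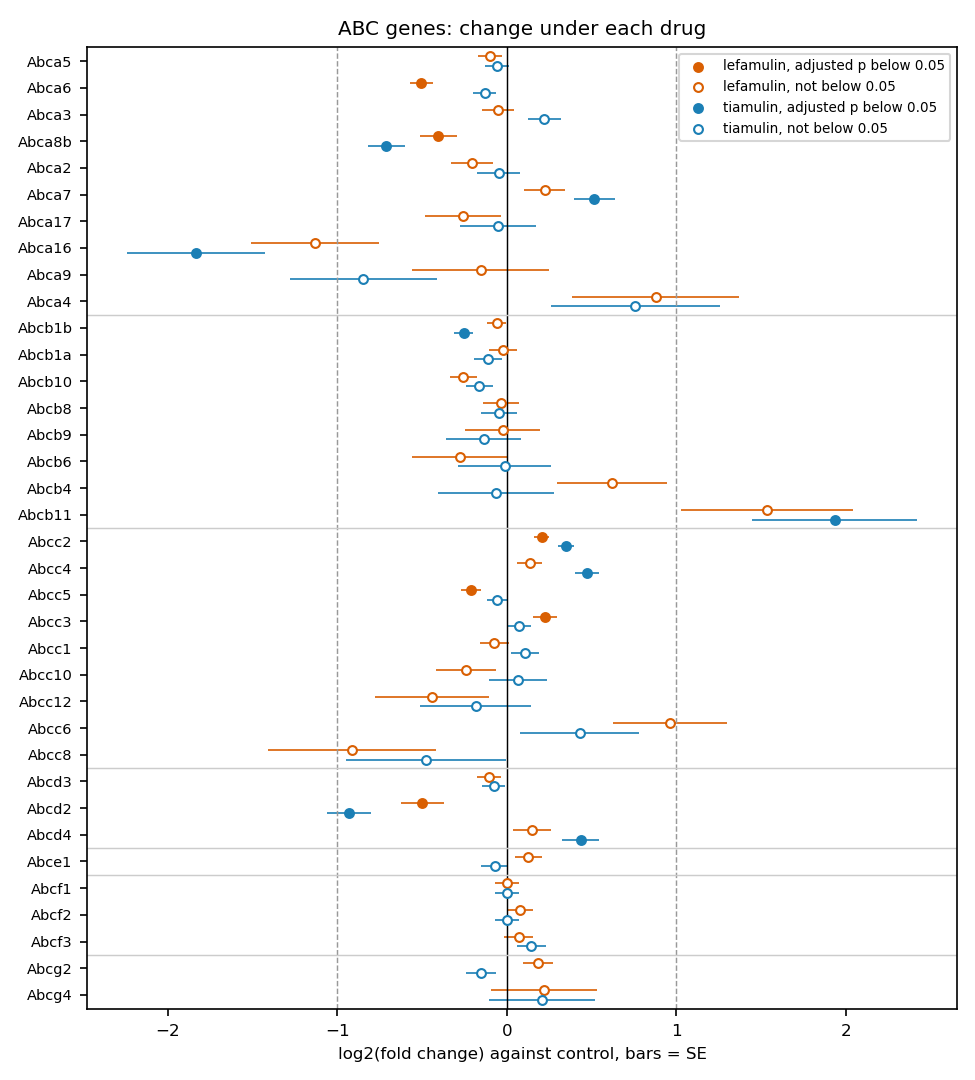
The log2(fold change) of 36 of the 38 tested members under lefamulin (orange) and tiamulin (blue) against the control, with bars for the SE. Filled points had an adjusted p below 0.05, dashed lines mark an absolute value of 1, and horizontal lines separate subfamilies A to G. Abcb11 and Abca16 lie farthest to the right and left under tiamulin, and most others lie near 0.

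Among the 8 canalicular bile exporters 6 were tested, of which 1 rose and 0 fell under lefamulin, where 7.09% of all genes rose and 6% fell, and 2 rose and 1 fell under tiamulin, where 9.08% rose and 7.34% fell. Abcc2 (ENSMUSG00000025194; chromosome 19, 43770631 to 43829179 as deposited) had 11065, 10813 and 11632 counts in controls 1 to 3, 11476, 12110 and 12231 in lefamulin libraries and 13434, 12734 and 14081 in tiamulin libraries. In counts per 1000000 reads after TMM normalization (normalized CPM) these were 639 ± 10.2, 737 ± 10.6 and 814 ± 16.9 (SD, n = 3). All lefamulin libraries stood above all controls, and all tiamulin libraries above all lefamulin libraries. Abcc2 rose by 0.21 on the log2 scale (SE 0.05, adjusted p = 0.00864) under lefamulin and by 0.35 (SE 0.05, adjusted p = 0.000132) under tiamulin. The lefamulin value lost its call without lefamulin 3, at an adjusted p of 0.0506.

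Abcb11 (ENSMUSG00000027048; chromosome 2, 69068626 to 69172960), the bile salt export pump, was raised from a very low level. Its counts were 4, 8 and 3 in controls, 14, 13 and 14 in lefamulin libraries and 13, 28 and 14 in tiamulin libraries. All 6 drug libraries were above all controls, and tiamulin 2 held the most. With tiamulin Abcb11 rose by 1.94 on the log2 scale (SE 0.49, adjusted p = 0.0141), and the lefamulin value was 1.53 (SE 0.51, adjusted p = 0.0617). Without tiamulin 2 the tiamulin value was 1.47 with an adjusted p of 0.0647, and it also lost its call without control 1 or control 3, where the adjusted p reached 0.0748. The lefamulin value passed without control 2 or tiamulin 2, with GC and length offsets, and in a fit of the 2 groups alone. At these counts the level stayed below 1 FPKM in every library.

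Abcb1a and Abcb1b encode P-glycoproteins, which expel many lipophilic drugs, and lie beside Abcb4 on chromosome 5 (8710077 to 9009231). Abcb1b (ENSMUSG00000028970) had 1964, 1931 and 1896 counts in controls, 1633, 1788 and 1738 in lefamulin libraries and 1561, 1448 and 1576 in tiamulin libraries. Its normalized CPM was 111 ± 4.07, 106 ± 1.71 and 92.7 ± 2.26, and the tiamulin libraries lay below all others. Abcb1b fell by 0.25 on the log2 scale under tiamulin (SE 0.06, adjusted p = 0.00685) and was -0.06 under lefamulin (95% interval -0.18 to 0.06, adjusted p = 0.557). Abcb1a had 951, 885 and 1082 counts in controls, 789 to 967 in lefamulin libraries and 811 to 873 in tiamulin libraries, all overlapping, with log2(fold change) values of -0.02 (-0.20 to 0.15) and -0.11 (-0.29 to 0.07). Of the 50-base windows of Abcb1b transcripts 18.04% also occurred in Abcb1a, so reads from these stretches could be assigned to either gene or to neither.

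The remaining canalicular members did not pass against the control. Abcb4 had 22, 21 and 44 counts in controls, 35, 38 and 51 in lefamulin libraries and 22, 36 and 20 in tiamulin libraries, with overlapping groups. Its log2(fold change) was 0.62 under lefamulin (-0.07 to 1.32) and -0.06 under tiamulin (-0.80 to 0.67). Abcg2, the breast cancer resistance protein, is described with the comparison of the drugs.

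Basolateral and other plasma membrane conjugate exporters comprised 6 tested members, of which 1 rose and 1 fell under lefamulin (7.09% and 6% of all genes) and 1 rose and 0 fell under tiamulin (9.08% and 7.34%). Abcc4 (ENSMUSG00000032849; chromosome 14, 118720104 to 118943631), which exports cyclic nucleotides and bile acids with glutathione, had 2363, 2278 and 2453 counts in controls, 2295, 2502 and 2421 in lefamulin libraries and 2895, 3417 and 2973 in tiamulin libraries. The normalized CPM was 135 ± 2.41, 149 ± 2.05 and 188 ± 21.9, with tiamulin 2 the highest and the 3 groups fully separated. Abcc4 rose by a log2(fold change) of 0.48 under tiamulin (SE 0.07, adjusted p = 0.000416), or 0.37 without tiamulin 2, and this call held in every alternative. Under lefamulin the value was 0.13 (-0.02 to 0.29, adjusted p = 0.25), and it passed without tiamulin 2, with GC and length offsets with and without a replicate block, and with the 2 groups alone (lowest adjusted p = 0.0223).

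Abcc3 and Abcc5 changed in opposite directions under lefamulin. Abcc3 (ENSMUSG00000020865; chromosome 11, 94234121 to 94283823), the basolateral exporter of glucuronides, had 1530, 1546 and 1664 counts in controls, 1600, 1851 and 1689 in lefamulin libraries and 1454, 1674 and 1562 in tiamulin libraries, or 90.4 ± 2.33, 106 ± 5.03 and 95.005 ± 8.48 normalized CPM. The lefamulin libraries were all above the controls, and the log2(fold change) was 0.23 (SE 0.07, adjusted p = 0.0471). This call was lost in 11 of 19 alternatives, among them leaving out any control or any lefamulin library or tiamulin 3, with an adjusted p of up to 0.206 without lefamulin 2. Under tiamulin the groups overlapped at 0.07 (-0.08 to 0.22), and the value without tiamulin 2 was -0.00.

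Abcc5 (ENSMUSG00000022822; chromosome 16, 20150053 to 20245144), an exporter of cyclic nucleotides and nucleotide analogues, had 3728, 3720 and 3837 counts in controls, 2836, 3022 and 3175 in lefamulin libraries and 3290, 3541 and 3386 in tiamulin libraries. Normalized CPM was 215 ± 1.103, 186 ± 7.48 and 207 ± 12.4. All lefamulin libraries lay below the controls, while tiamulin 2 lay above them and tiamulin 1 and 3 below. The value fell by 0.21 on the log2 scale under lefamulin (SE 0.06, adjusted p = 0.0269), a call lost in 6 of 19 alternatives with an adjusted p of up to 0.122 without lefamulin 2, and also lost without lefamulin 1 or any 1 control. Under tiamulin it was -0.06 (-0.18 to 0.07).

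Of the other conjugate exporters, Abcc1, a broad exporter of glutathione conjugates, had 711 to 750 counts in controls, 625 to 653 in lefamulin libraries and 698 to 810 in tiamulin libraries. Its log2(fold change) was -0.07 (-0.25 to 0.11) and 0.11 (-0.07 to 0.29). Abcc6, whose loss causes ectopic mineralization, had 18, 14 and 11 counts in controls, 32, 23 and 23 in lefamulin libraries and 16, 15 and 24 in tiamulin libraries. The lefamulin libraries were all above the controls at 0.96 (0.24 to 1.69), yet the adjusted p was 0.0751, and the tiamulin libraries overlapped them. Abcc10 did not pass, at -0.24 and 0.07.

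**Figure D3:**
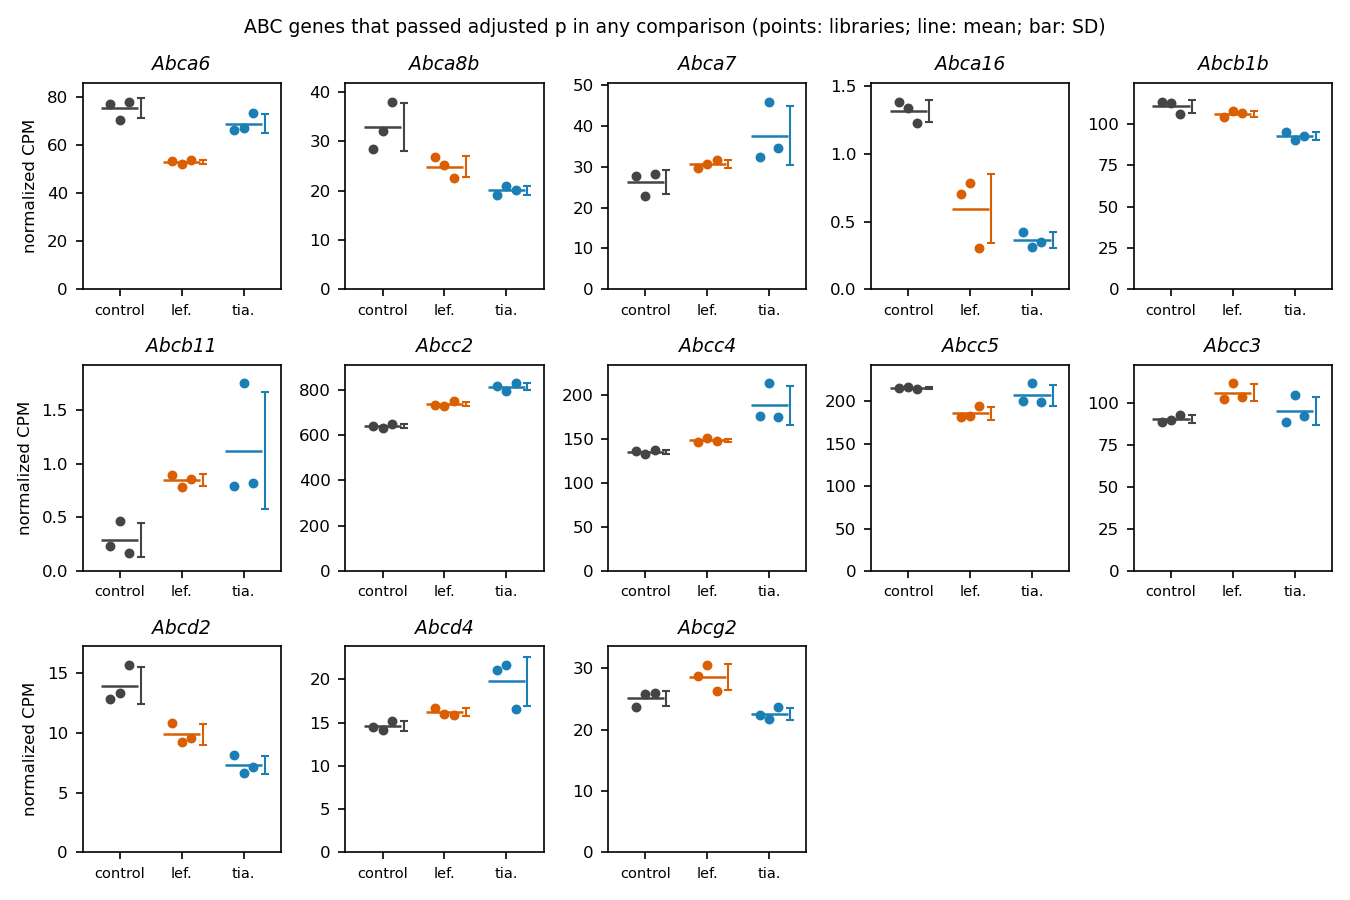
Normalized CPM of the 13 members with an adjusted p below 0.05 in any comparison, in control, lefamulin (lef.) and tiamulin (tia.) libraries. Points are libraries, horizontal lines group means and bars the SD (n = 3), and every axis starts at 0. Abcc2, Abca8b and Abcd2 are separated from the controls under both drugs, and 1 tiamulin library stands high for Abcb11, Abcc4 and Abca7.

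In subfamily A, whose members mostly move phospholipids and sterols, 10 of 15 were tested. Under lefamulin 0 rose and 2 fell, where 7.09% of all genes rose and 6% fell. Under tiamulin 1 rose and 2 fell, where 9.08% rose and 7.34% fell. A run of 5 of its genes, Abca8b, Abca8a, Abca9, Abca6 and Abca5, stand side by side on chromosome 11 (109823016 to 110228542 as deposited) and belong to a subgroup of similar sequence. Among them Abca8b fell under both drugs and Abca6 under lefamulin, while Abca5, the most abundant of them, had a log2(fold change) of -0.10 (-0.25 to 0.05) and -0.06 (-0.21 to 0.09), and Abca9 had at most 18 counts in a library.

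Abca8b (ENSMUSG00000020620), linked to cholesterol efflux, had 493, 552 and 681 counts in controls, 419, 418 and 370 in lefamulin libraries and 315, 335 and 343 in tiamulin libraries. In normalized CPM this was 32.9 ± 4.83, 24.9 ± 2.07 and 20.1 ± 0.885, and the 3 groups did not overlap. It fell by 0.40 on the log2 scale (SE 0.11, adjusted p = 0.0236) under lefamulin and by 0.71 (SE 0.11, adjusted p = 0.000467) under tiamulin, 61.1% of the control level. The tiamulin call held in all 19 alternatives, and the lefamulin call was lost in 7, with an adjusted p of up to 0.137 without control 3, and also without control 2, lefamulin 2 or lefamulin 3.

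Abca6 (ENSMUSG00000044749; chromosome 11, 110067646 to 110142602) had 1336, 1209 and 1394 counts in controls, 832, 862 and 876 in lefamulin libraries and 1084, 1072 and 1243 in tiamulin libraries. The normalized CPM was 75.1 ± 4.13, 52.9 ± 0.9002 and 68.7 ± 3.90. Every lefamulin library lay below every other library, and the tiamulin and control libraries overlapped. Abca6 fell by 0.51 on the log2 scale under lefamulin (SE 0.07, adjusted p = 0.000227), a call kept in all 19 alternatives, and stood at -0.13 under tiamulin (-0.27 to 0.02, adjusted p = 0.223).

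Abca7 (ENSMUSG00000035722; chromosome 10, 79832328 to 79851406), a phospholipid transporter with a role in phagocytosis, had 481, 393 and 504 counts in controls, 465, 507 and 518 in lefamulin libraries and 533, 734 and 586 in tiamulin libraries. Normalized CPM was 26.3 ± 2.94, 30.7 ± 1.02 and 37.6 ± 7.23, with tiamulin 2 far above the rest and no overlap between groups. It rose by 0.52 under tiamulin on the log2 scale (SE 0.12, adjusted p = 0.00967) and by 0.35 without tiamulin 2, and the call was lost without control 2 at an adjusted p of 0.0545. Under lefamulin the value was 0.22 (-0.04 to 0.49, adjusted p = 0.265), and it passed with GC and length offsets, with and without a replicate block.

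Abca16 (ENSMUSG00000051900; chromosome 7, 120008870 to 120144036) lies in a cluster with Abca14 and Abca15 and had few counts, 24, 23 and 22 in controls, 11, 13 and 5 in lefamulin libraries and 7, 5 and 6 in tiamulin libraries. All drug libraries were below all controls. The log2(fold change) was -1.83 under tiamulin (SE 0.41, adjusted p = 0.00681), 28.1% of the control level, and the call held in every alternative in which the gene was tested. Under lefamulin it was -1.13 (SE 0.38, adjusted p = 0.0644), and it passed with GC and length offsets and in a fit of the 2 groups alone. With at least 10 counts required in every library the gene was not tested. Its neighbours Abca14 and Abca15 had at most 8 counts in any library.

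Among the remaining tested members of subfamily A, Abca3, which loads phospholipid into lamellar bodies, stood at -0.05 and 0.22, and Abca2, a lysosomal member of brain myelin biology, at -0.21 and -0.05. Abca17 was at -0.26 and -0.05, and Abca4, the retinal retinoid transporter, at 0.88 and 0.76 on 3 to 12 counts per library. None of them passed under either drug.

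Subfamily D serves peroxisomes and lysosomes. Abcd2 (ENSMUSG00000055782; chromosome 15, 91030074 to 91076002), a half-transporter that brings very long-chain fatty acyl-CoA into peroxisomes, had 222, 229 and 281 counts in controls, 170, 153 and 156 in lefamulin libraries and 134, 106 and 122 in tiamulin libraries. This was 13.95 ± 1.53, 9.88 ± 0.868 and 7.32 ± 0.775 normalized CPM, and the 3 groups were fully separated. Abcd2 fell by 0.50 on the log2 scale (SE 0.13, adjusted p = 0.0185) under lefamulin and by 0.93 (SE 0.13, adjusted p = 0.000233) under tiamulin, 52.5% of the control level. The tiamulin call held in all 19 alternatives, whereas the lefamulin call was lost in 4, with an adjusted p of up to 0.106 without control 3, and also without lefamulin 2 or lefamulin 3.

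Abcd3, a more abundant peroxisomal half-transporter, had a log2(fold change) of -0.10 (-0.25 to 0.05) under lefamulin and -0.08 (-0.23 to 0.07) under tiamulin, and did not pass in any comparison.

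Abcd4 (ENSMUSG00000021240; chromosome 12, 84648238 to 84664187), which exports cobalamin from lysosomes, had 251, 243 and 272 counts in controls, 262, 265 and 259 in lefamulin libraries and 347, 347 and 281 in tiamulin libraries. Normalized CPM was 14.6 ± 0.534, 16.2 ± 0.477 and 19.8 ± 2.82, with all drug libraries above all controls and tiamulin 3 close to the lefamulin libraries. It rose by 0.44 under tiamulin on the log2 scale (SE 0.11, adjusted p = 0.0139) and stood at 0.15 under lefamulin (-0.09 to 0.39). The tiamulin call was lost in 3 of 19 alternatives, with an adjusted p of up to 0.0574 without tiamulin 1, and also without control 2. Of the 5 lysosomal members, Abcd4 was the one that passed under tiamulin (16.4% of all genes), and 0 passed under lefamulin (13.1%).

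Among the mitochondrial half-transporters, Abcb10, which supports heme synthesis, had 416, 413 and 428 counts in controls and 310, 325 and 341 under lefamulin without overlap, at -0.26 (-0.43 to -0.08, adjusted p = 0.0511). Its tiamulin counts of 351, 351 and 357 were also apart from the controls in normalized CPM, at -0.16 (-0.33 to 0.01, adjusted p = 0.193). Abcb8 and Abcb6 were at -0.04 and -0.28 under lefamulin and -0.04 and -0.01 under tiamulin. None of these 3 passed under either drug, and the same held for the translation ATPases. Of all genes 13.1% passed under lefamulin and 16.4% under tiamulin.

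For the 4 soluble ATPases Abce1, Abcf1, Abcf2 and Abcf3 the log2(fold change) ranged from 0.00 to 0.13 under lefamulin and from -0.07 to 0.14 under tiamulin. For Abcf1 the 95% interval ran from -0.15 to 0.15 under either drug. Abce1 was highest in the lefamulin libraries, 53.3 to 54.3 FPKM against 46.1 to 52.1 in controls, without passing the test (adjusted p = 0.324).

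Further tested members were Abcb9, a lysosomal peptide transporter, at -0.02 and -0.14, Abcc12 at -0.44 and -0.18, Abcg4, a sterol half-transporter, at 0.22 and 0.21, and Abcc8, the sulfonylurea receptor of potassium channels, at -0.91 and -0.48 on 2 to 14 counts per library. None passed.

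The drugs were then compared directly at the matched dose and time, 1 pair of compounds. In tiamulin against lefamulin 3 of the 38 members (7.89%) had an adjusted p below 0.05, against 4.9% of all tested genes. Abca6 and Abcc4 were higher under tiamulin, 2 members against a background of 2.85%, and Abcg2 was lower, 1 member against 2.05%. None met the DEG threshold, which 0.227% of all genes met, and 14 (36.8%) had an unadjusted p below 0.05, against 21.6%. The libraries of the drugs did not overlap for 13 members (34.2%), against 26.5% of all genes. The count was 6 without tiamulin 2, where 8.79% of all genes passed, and 0 without lefamulin 2, where 1.39% did. It was 1 without lefamulin 1 or lefamulin 3, against 1.62% and 1.37% of all genes, and 5 of the 28 members given an adjusted p by DESeq2, against 9.44%.

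Abca6 was higher under tiamulin by 0.38 on the log2 scale (0.23 to 0.52, adjusted p = 0.00692), and lost its call without lefamulin 2, at an adjusted p of 0.0514. For Abcc4 the difference was 0.34 (0.19 to 0.49, adjusted p = 0.0158) and 0.24 without tiamulin 2. The Abcc4 call was lost in 6 of 19 alternatives, with an adjusted p of up to 0.0866 without lefamulin 1, and also without lefamulin 2 or lefamulin 3.

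Abcg2 (ENSMUSG00000029802; chromosome 6, 58561508 to 58672661), an exporter of drugs, urate and porphyrins, had 410, 442 and 464 counts in controls, 449, 507 and 430 in lefamulin libraries and 368, 348 and 402 in tiamulin libraries. In normalized CPM the groups stood at 25.1 ± 1.24, 28.5 ± 2.10 and 22.6 ± 0.977, the lefamulin libraries all above the controls and the tiamulin libraries all below them, tiamulin 3 only just. Against the control neither drug passed, at 0.18 (-0.00 to 0.37, adjusted p = 0.187) and -0.15 (-0.34 to 0.04, adjusted p = 0.275). Between the drugs the difference was -0.34 (-0.52 to -0.15, adjusted p = 0.0432). This call was lost in 11 of 19 alternatives, with an adjusted p of up to 0.184 without lefamulin 2, and also without tiamulin 1, any other lefamulin library or any control.

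For the members called under both drugs the difference between them did not pass. It was 0.14 for Abcc2 (0.04 to 0.24, adjusted p = 0.0887), -0.43 for Abcd2 (-0.72 to -0.14, adjusted p = 0.0808) and -0.31 for Abca8b (-0.55 to -0.07, adjusted p = 0.126), with the libraries of the drugs apart in each case. Abcb1b stood at -0.20 (-0.32 to -0.07, adjusted p = 0.0634). Without tiamulin 2, with DESeq2 and with GC and length offsets the differences of Abcc2 and Abcb1b passed. For the other members called under 1 drug the difference did not pass either, with intervals and adjusted p values given for Abcb11 (-0.50 to 1.30, adjusted p = 0.621), Abca16 (-1.69 to 0.28, adjusted p = 0.401), Abca7 (0.03 to 0.55, adjusted p = 0.179), Abcd4 (0.05 to 0.52, adjusted p = 0.146), Abcc5 (0.03 to 0.28, adjusted p = 0.143) and Abcc3 (-0.30 to -0.01, adjusted p = 0.216). The Abcc3 difference passed without tiamulin 2 and with the offsets, with and without a replicate block, and that of Abcd4 without tiamulin 3. The Abcb11 difference was 0.40 with all libraries and -0.06 without tiamulin 2.

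**Figure D4:**
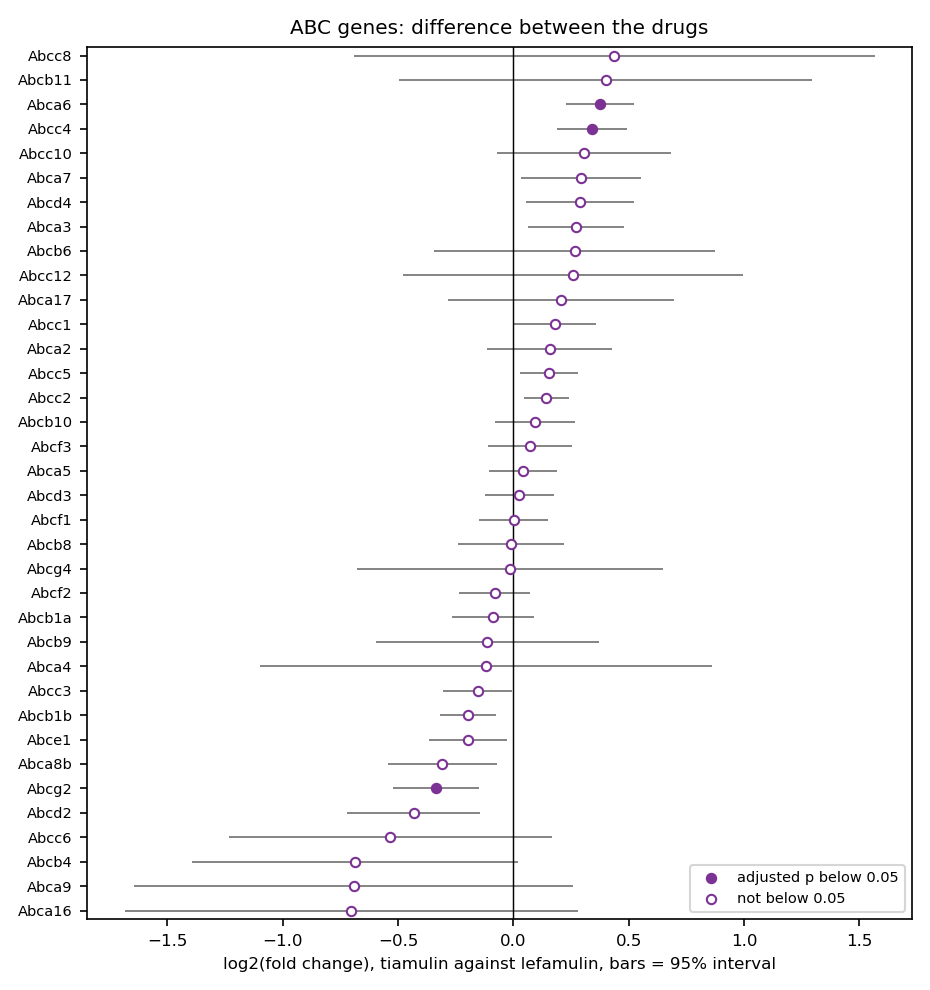
The log2(fold change) of tiamulin against lefamulin for 36 of the 38 tested members, in order of size, with unadjusted 95% intervals derived from the edgeR test statistic. Filled points had an adjusted p below 0.05. Abca6 and Abcc4 lie to the right of 0 and Abcg2 to the left with narrow intervals, whereas Abca16, Abcb11 and Abcc8 have wide ones.

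Genes that work with ABC transporters were listed as well. Of the 3 ABC genes with other symbols, Tap1 and Tap2, the peptide transporter of antigen presentation, were tested. Tap2 rose under tiamulin by 0.45 on the log2 scale (SE 0.12, adjusted p = 0.0168), where 9.08% of all genes rose, and Tap1 did not pass. Neither passed under lefamulin, where 13.1% of all genes did. The chloride channel gene Cftr had at most 6 counts in a library. Of 11 hepatic uptake and counter-transport carriers 3 were tested, and 1 fell under lefamulin and 2 under tiamulin, against 6% and 7.34% of all genes. Of 14 nuclear receptors and other regulators 12 were tested, and 3 fell under lefamulin, 1 fell under tiamulin and 0 rose, against the same 6% and 7.34% lower and 7.09% and 9.08% higher among all genes.

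Of 10 partners of ABC proteins 9 were tested, and 1 rose under lefamulin and 2 under tiamulin, against 7.09% and 9.08% of all genes. Ezr, which encodes ezrin, a linker between membrane proteins and actin, was the gene of these lists that met the DEG threshold. Its counts were 4151, 3762 and 3998 in controls, 8505, 9449 and 9361 in lefamulin libraries and 6071, 7416 and 6320 in tiamulin libraries, with all 3 groups apart. Ezr rose by 1.31 on the log2 scale under lefamulin (SE 0.08, adjusted p = 1.81e-07) and by 0.82 under tiamulin (SE 0.08, adjusted p = 7.48e-06), and the difference between the drugs was -0.49 (adjusted p = 0.0033). Its relative radixin, encoded by Rdx and known to anchor Abcc2 in the canalicular membrane of hepatocytes, stood at -0.06 and -0.03.

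Both excluded members of the family were lower under either drug. Abca1, which exports cholesterol to apolipoproteins, had a log2(fold change) of -2.95 under lefamulin and -3.74 under tiamulin, and Abcg1, which exports sterols to lipoprotein particles, -1.33 and -1.60.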

How the data were processed

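RNA of 9 Hepa1-6 samples, 3 per group, was sequenced. The authors deposited raw read counts per gene, not normalized, and FPKM values. For values with over 50 counts these could be recomputed by dividing each count by gene length and by 1 total per library, to within 1.30e-06%. The submitters' processing notes name CASAVA 1.8, fastp, HISAT2 2.0.5, featureCounts 1.5.0-p3, DESeq2 1.20.0 and mm10, without role or order. Strand use in counting is not given in the sources used here. Gene positions are printed as deposited, and 0 of the 48 members had the start and end of the GRCm38 annotation, so that build is not theirs. Promoter sequences and their coordinates are from RefSeq, GRCm38.p6, and those positions cannot be set against the deposited ones. Transcript sequences for shared 50-base windows and GC content (at hand for 14242 tested genes and all 48 members) came from GENCODE M21.

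Counts were filtered with filterByExpr, normalized with TMM (factors 0.994 to 1.01) and analysed in edgeR 4.0.16 under R 4.3.3 (robust quasi-likelihood fit of the 9 libraries, group as the only term, Benjamini-Hochberg adjustment over 14510 genes). The code was also run on simulated counts with the same spread between libraries for every gene. That run does not measure error rates in these data. Genes are called at an adjusted p below 0.05 and as DEGs with an absolute log2(fold change) above 1 as well. Each SE was derived from the log2(fold change) and the F statistic of its edgeR test, and is approximate. Intervals are 95% intervals of a single gene built from these SEs, not adjusted. Two-sided tests were used throughout. Groups were taken from the sample titles. FPKM was used to compare levels between genes and counts to compare groups. With totals between 15568887 and 18008105, a floor of 3 counts is 0.167 to 0.193 CPM in a library. Intervals and floors for counts cover counting error only.

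Values are given in every library for members called in any of the 3 comparisons. Levels are given for the most abundant member of each subfamily and for the canalicular and drug exporters. Genes of other lists, apart from the cell type markers, are given in every library where they met the DEG threshold. Values of some listed genes are not reported here, and these are left out of the figures. Names of further members and of Tap2 and Rdx were chosen after their values were seen. The members, lists and tests were chosen with earlier results of these data known. Alternatives were DESeq2 size factors in edgeR, DESeq2 1.42.0, no count filter, a minimum of 10 counts in each library, a replicate block, offsets for GC content and length with and without the block, limma 3.58.1 on log2(FPKM + 1) and log2(FPKM + 0.1) for genes above 1 FPKM in at least 3 libraries, the 2 groups compared alone, and leaving out each library. The 3 comparisons share libraries, so no overlap between them is tested.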

Additional observations from a re-analysis of the deposited data

Results flagged for a closer look

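The test of tiamulin against lefamulin singled out 3 members whose response differed between the drugs. Abca6 was higher under tiamulin by 0.377 on the log2 scale, Abcc4 was higher by 0.341, and Abcg2 differed by -0.336, lower under tiamulin (edgeR, adjusted p = 0.00692, 0.0158 and 0.0432). In each case all 3 tiamulin libraries lay on the same side of all 3 lefamulin libraries. Abca6 lost its call in 1 of 19 alternatives, Abcc4 in 6 and Abcg2 in 11, and leaving out lefamulin 2 ended each of the 3 calls.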

How the results depend on the processing

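Over 39 values, 13 members in 3 comparisons, and 19 settings, 643 of 722 recomputed values kept their side of the threshold, 54 lost a call and 25 gained one. No called value changed sign, and 2 values below the threshold did, both without tiamulin 2, Abcc3 under tiamulin (0.07 to -0.00) and Abcb11 between the drugs (0.40 to -0.06). Members called under lefamulin (6) became 3 with a replicate block, 11 with the block and GC and length offsets, 13 with the offsets and 12 with the 2 groups alone. In these fits 8.99%, 21.9%, 23.9% and 24.8% of all genes passed against 13.1% before. On leaving out a library the members called ranged from 2 to 11, while 6.69% to 24.9% of all genes passed. DEGs under lefamulin (0) became 1 with the block and offsets, 3 with the offsets and 2 with the 2 groups alone, where 1.85%, 1.97% and 1.91% of all genes were DEGs against 1.51% before, and ranged from 0 to 1 on leaving out a library, with 1.03% to 1.98% of all genes. Under tiamulin the 9 calls stayed between 6 and 11, while 8.84% to 27.4% of all genes passed, and between 7 and 9 on leaving out a library, with 9.85% to 23.1% of all genes. The 2 DEGs under tiamulin became 0 with at least 10 counts in every library and 0 with limma at either pseudocount, since both genes were then not tested, and ranged from 1 to 3 on leaving out a library, where 1.39% to 1.88% of all genes were DEGs. Calls between the drugs (3) became 5 with DESeq2, 7 with the offsets, 7 with the block and offsets, 1 with limma on log2(FPKM + 1), 1 with limma on log2(FPKM + 0.1) and 1 with the 2 groups alone. In these fits 9.44%, 13.0%, 11.2%, 3.6%, 3.6% and 1.99% of all genes passed against 4.9% before. On leaving out a library these calls ranged from 0 to 6, while 1.37% to 8.79% of all genes passed. DEGs between the drugs stayed at 0 in every setting, where 0.0812% to 0.372% of all genes were DEGs. The cause of these shifts was not tested. Fewer libraries enter the fits of 2 groups and of left-out libraries, and calls rose in some of these fits and fell in others.

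The correlation of deviations between same-numbered libraries ranged from -0.510 to 0.0434, and 0 of 9 pairs exceeded 0.1. Between control 1 and tiamulin 2, of unlike number, it was 0.512. The GC trends of single libraries enter these deviations, so the correlations cannot decide whether replicate numbers pair the samples. With the replicate block the counts were 3 under lefamulin, 9 under tiamulin and 2 between the drugs, where 8.99%, 12.5% and 1.81% of all genes passed. Low counts limit Abcb11, Abca16, Abca4, Abca9, Abcc6 and Abcc8, and 10 members could not be tested at this depth.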

Other observations

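Other genes of the transport lists moved as well. Slco1a1, an organic anion uptake carrier, fell by 0.90 on the log2 scale under tiamulin in edgeR (adjusted p = 0.00572) and stood at -0.14 under lefamulin, with a difference between the drugs of -0.76 (adjusted p = 0.043). Its counts were 70, 87 and 77 in controls, 58, 69 and 70 in lefamulin libraries and 38, 31 and 49 in tiamulin libraries. Among the regulators, Nr1h4, the bile acid receptor FXR, fell by 0.42 under lefamulin (adjusted p = 0.0388) and stood at 0.00 under tiamulin (adjusted p = 0.987). Hnf4a fell by 0.21 under lefamulin (adjusted p = 0.0374) and was -0.05 under tiamulin (adjusted p = 0.627). Tfeb, a regulator of lysosomal genes, fell by 0.64 under lefamulin (adjusted p = 0.0268) and was -0.46 under tiamulin (adjusted p = 0.0851). Keap1, the inhibitor of the oxidative stress factor encoded by Nfe2l2, fell by 0.36 under tiamulin (adjusted p = 0.0341) and was -0.31 under lefamulin (adjusted p = 0.0703). Hbs1l, a ribosome rescue factor, rose by 0.22 under tiamulin (adjusted p = 0.0172) and was 0.16 under lefamulin (adjusted p = 0.076). None of these 5 passed between the drugs. These genes were named after their values were seen.

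Some members share sequence or position with other genes. Among transcript windows of 50 bases, 66.8% of those of Abcb6 also occurred in Gm29253, 14.3% of those of Abca3 in another gene, mostly the antisense D330041H03Rik with 32 to 73 counts, and 18.6% of those of Abcb1a in another gene, mostly Abcb1b. Gm29253 lies on the same strand as Abcb6, and how reads from windows that 2 genes share were assigned is not given in the sources used here. For Abca3 and its antisense partner strand use in counting was not stated, so their reads cannot be told apart with certainty.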
